A study of Saccharomyces cerevisiae with 4 samples.

Results

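The 26S proteasome genes of budding yeast were followed here across 4 Affymetrix Yeast Genome 2.0 arrays, as 34 members among the 5449 S. cerevisiae genes that the annotation names. Members were taken by gene symbol: 14 subunits of the core particle, 9 of the base, 8 of the lid, and the 3 regulators RPN4, UMP1 and ECM29. Each of the 34 matched 1 probe set, and all 34 were measured. Of the arrays, 2 were hybridised with RNA from the wild type strain K699 (MATa) and 2 with RNA from strain Y3501 (MATa, wpl1∆::KAN), in which a KAN cassette replaces WPL1. All cultures were in exponential growth in YP medium with glucose. WPL1, listed under its standard name RAD61, encodes the yeast relative of Wapl, a factor that releases cohesin rings from chromosomes. The comparison asks which transcripts differ when it is missing. The labels do not say whether the 2 arrays of a strain came from separate cultures or clones, so p-values measure only the spread between these arrays.

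The proteasome degrades proteins marked with ubiquitin. Its core particle is a barrel of 2 outer alpha rings, which gate the entrance, and 2 inner beta rings, which hold the proteolytic sites. A base of ATPases unfolds substrates and threads them into the barrel, and a lid removes the ubiquitin chains. In yeast the transcription factor Rpn4 activates most proteasome genes through a shared promoter element, and the proteasome itself rapidly destroys Rpn4, so that a shortage of proteasomes raises transcription of its subunits.

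The values are log2 expression from RMA, per the submitters' processing notes, so a difference of 1 is a factor of 2. Fission yeast (S. pombe) probe sets on the same arrays served as background, with 95th percentiles from 5.79 to 6.10. All 34 members lay above that limit in all 4 arrays, the lowest at 7.68, against 93.1% to 95.9% of all genes per array. Levels of different probe sets are not compared with each other. RAD61 was at 6.43 and 6.55 in wild type replicates 1 and 2 and at 3.96 and 4.44 in the deletion, where both values were below background. The mating type a genes STE2, STE6, MFA1, MFA2, BAR1 and AGA2 were above background in all arrays, from 8.65 to 11.8. Of the alpha genes, STE3, the a-factor receptor, was below it in all 4 arrays, MF(ALPHA)1 was above it in 3, and MF(ALPHA)2, SAG1 and AFB1 were above it in all 4.

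The descriptions give both arrays of a replicate number the same date tag, without saying which step was dated. Replicate 2 was therefore also set against replicate 1 over both genotypes. With 1 date tag per replicate number, the p-values of that comparison do not measure the spread between dates. Growth, RNA preparation and array handling cannot be told apart in that difference. In bulk RNA, a changed share of cells and a changed level per cell cannot be told apart either.

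**Figure D1:**
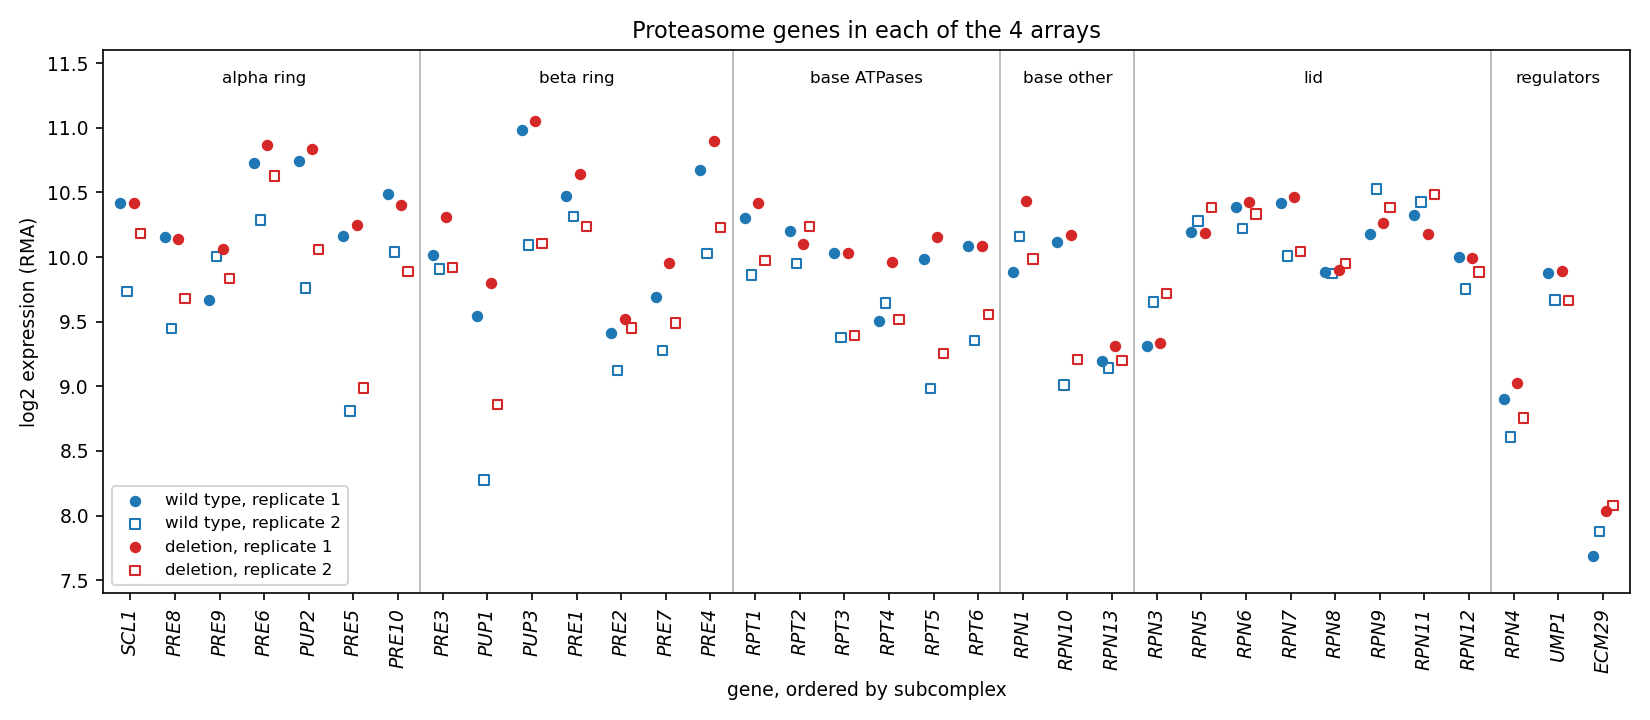
Log2 expression of the 34 members (vertical axis) in each array, with genes on the horizontal axis by subcomplex. Blue is wild type, red the deletion, filled circles are replicate 1 and open squares replicate 2. For PRE5, PUP1 and RPN10 both squares lie well below both circles, while for the lid gene RPN3 both squares lie above.

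Between the genotypes, the log2 differences of the proteasome genes, deletion minus wild type, ran from -0.12 to 0.42. Their median was 0.11, beside -0.03 for all 5449 genes. In limma, 0 of the 34 members had an adjusted p under 0.05, where 0% of all genes were called. Before adjustment, 0 members and 10 genes had p under 0.05. Limma with replicate number as a blocking term also called 0 members and 0% of all genes, and PUP1 was the 1 member among the 156 genes with p under 0.05 before adjustment. The lowest adjusted p reached by a member was 1 without the block and 0.996 with it. RAD61, the deleted gene, was not called either, at a measured difference of -2.29 with an adjusted p of 1 in limma and 0.141 with the block. The counts of 0 therefore do not show that proteasome genes were the same in both genotypes.

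The measured differences were nonetheless mostly above 0. They were so in 31 of 34 members (30 with quantile normalization over the genes), beside 2372 of 5449 genes. It was above 0 in both replicates for 19 of 34 members, where 21.3% of all genes were so. The member median was 0.08 in replicate 1, where all genes had 0.04, and 0.11 in replicate 2, where all genes had -0.10. Relative to all genes, the members were at 0.04 and 0.21. Both deletion arrays lay above both wild type arrays for 3 of 34 members, PRE2, RPN8 and ECM29, beside 5.32% of all genes. The opposite separation was found for 0 members, beside 469 of 5449 genes. Without wild type replicate 2 the member median turned to -0.03, beside -0.06 for all genes, and without deletion replicate 1 to -0.04, beside -0.12. The member median rose to 0.23 without wild type replicate 1, beside 0.002 for all genes, and to 0.30 without deletion replicate 2, beside 0.07. In each case it stayed above the median of all genes. Each omission mixes genotype with date.

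**Figure D2:**
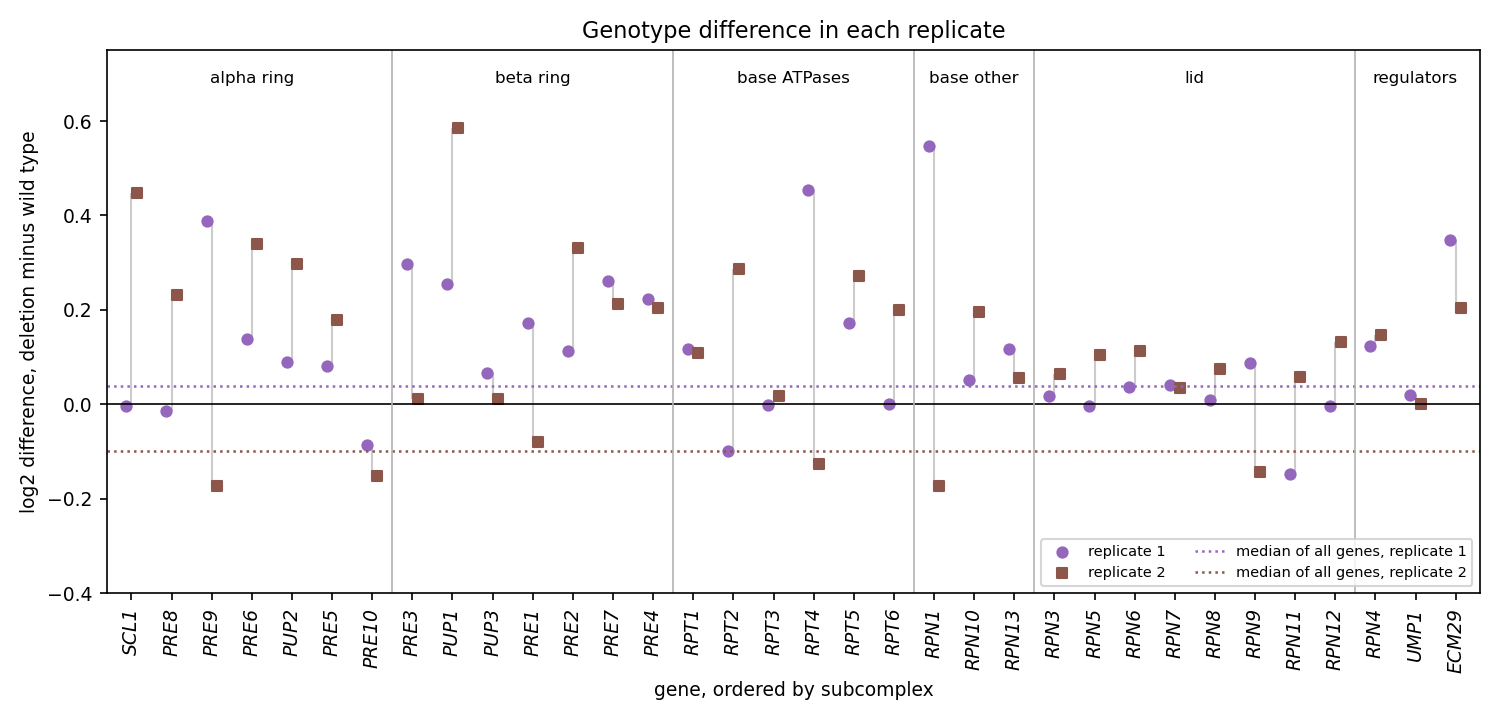
Log2 difference of deletion minus wild type (vertical axis) for each member, in replicate 1 (circles) and replicate 2 (squares). Dotted lines are the medians of all genes, 0.04 in replicate 1 and -0.10 in replicate 2. Most points lie above 0, and those of the lid stay closest to it.

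RPN4, the activator of the proteasome genes, was at 8.90 and 8.61 in wild type replicates 1 and 2 and at 9.03 and 8.75 in deletion replicates 1 and 2. The deletion was higher than wild type within each replicate, by 0.12 and 0.15, but the groups overlapped. The mean difference was 0.13 (SE 0.26, and 0.14 with the block). Here and below, genotype SEs given without the block also hold the difference between replicates. Between the replicates RPN4 differed by -0.28 (SE 0.14), with -0.30 in wild type and -0.27 in the deletion, and did not pass in limma (adjusted p = 0.19).

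UMP1, a chaperone that helps assemble the core particle and is then degraded by it, stayed at 9.87 and 9.67 in wild type and 9.89 and 9.67 in the deletion. Its genotype difference was 0.01 (SE 0.24). ECM29, an adaptor that holds core and regulatory particles together, was at 7.68 and 7.88 in wild type and at 8.03 and 8.08 in the deletion. The ECM29 groups did not overlap, and its difference of 0.28 (SE 0.23) was the largest of the 3 regulators.

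The alpha ring shows how far subunits of one ring can differ. PRE5, the alpha 6 subunit, was at 10.17 and 10.25 in the replicate 1 arrays of wild type and deletion and at 8.81 and 8.99 in those of replicate 2. Replicate 2 was 2.48-fold lower, a log2 difference of -1.31 (SE 0.14, limma adjusted p = 0.0258). PUP2, alpha 5, was at 10.74 and 10.83 in replicate 1 and 9.76 and 10.06 in replicate 2, a difference of -0.88 (SE 0.14, adjusted p = 0.0278 in limma). PRE9, alpha 3, the one subunit of the ring that yeast can live without, did not share this. Its values were 9.67 and 10.00 in wild type and 10.06 and 9.83 in the deletion, and its replicate difference was 0.05 (SE 0.19), with opposite signs in the genotypes. SCL1, PRE8, PRE6 and PRE10, the other alpha subunits, had replicate differences from -0.58 to -0.34 and did not pass. PRE8 missed narrowly, with adjusted p = 0.0517 in limma.

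Genotype differences in the alpha ring ran from -0.12 to 0.24. PRE6, alpha 4, had the upper value (SE 0.27), with 0.14 and 0.34 in replicates 1 and 2. SCL1, alpha 1, had 0.22 (SE 0.31), which came from replicate 2 at 0.45, while replicate 1 was at -0.00. PRE10, alpha 7, had the lower value (SE 0.30) and was the 1 member below 0 in both replicates, beside 1468 of 5449 genes.

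In the beta ring, PUP1, the beta 2 subunit with the trypsin-like site, was at 9.54 and 9.80 in the replicate 1 arrays of wild type and deletion and at 8.27 and 8.86 in replicate 2. Replicate 2 was 2.15-fold lower (log2 difference -1.10, SE 0.16, limma adjusted p = 0.0258). PUP1 also had the largest genotype difference of all members, 0.42 (SE 0.52, and 0.16 with the block), with 0.25 in replicate 1 and 0.59 in replicate 2. PUP3, beta 3, was at 10.99 and 11.05 in replicate 1 and at 10.09 and 10.10 in replicate 2, a difference of -0.92 (SE 0.14, adjusted p = 0.0261 in limma). PRE4, beta 7, had -0.66 (SE 0.14, adjusted p = 0.0388 in limma), with nearly equal values of -0.65 and -0.67 in wild type and deletion.

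The other proteolytic subunits differed less between replicates. PRE3, beta 1, the caspase-like site, had -0.25 (SE 0.15). PRE2, beta 5, the chymotrypsin-like site, had -0.18 (SE 0.15), and neither passed. PRE2 was at 9.41 and 9.12 in wild type and at 9.52 and 9.45 in the deletion. Its genotype groups did not overlap, with a difference of 0.22 (SE 0.24). PRE7, beta 6, had 0.24 (SE 0.29) between genotypes, almost the same in replicate 1 (0.26) and replicate 2 (0.21), and PRE1, beta 4, had 0.05 (SE 0.26). All 7 beta subunits had genotype differences above 0, the lowest being 0.04 for PUP3, and all 7 had replicate differences below 0. Over all genes, 2372 of 5449 had the former and 3408 the latter.

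Among the base ATPases, RPT5, whose C-terminus docks into the alpha ring and opens the gate, was at 9.98 and 10.16 in the replicate 1 arrays of wild type and deletion and at 8.98 and 9.25 in replicate 2. The difference of -0.95 (SE 0.14) passed in limma (adjusted p = 0.0258). RPT3 had -0.64 (SE 0.14, adjusted p = 0.0396) and RPT6 -0.63 (SE 0.14, adjusted p = 0.0433), both in limma. RPT3 had almost the same values in both genotypes, 10.03 in wild type and deletion replicate 1 and 9.38 and 9.39 in replicate 2. RPT1, RPT2 and RPT4 did not pass, with replicate differences of -0.45, -0.06 and -0.15. RPT4 was at 9.51 and 9.64 in wild type and 9.96 and 9.52 in the deletion, so deletion replicate 1 stood above the other arrays. Genotype differences of the 6 ATPases ran from 0.01 for RPT3 to 0.22 for RPT5 (SE 0.46, and 0.14 with the block). RPT3 was at -0.0035 with quantile normalization over the genes.

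The other base subunits split. RPN10, a ubiquitin receptor that sits between base and lid, was at 10.12 and 10.17 in replicate 1 and at 9.01 and 9.21 in replicate 2, 2.05-fold lower (log2 difference -1.04, SE 0.14, limma adjusted p = 0.0258). RPN13, another ubiquitin receptor, was at 9.20 and 9.14 in wild type and 9.31 and 9.20 in the deletion, with a replicate difference of -0.09 (SE 0.14). RPN1, the large scaffold that binds shuttle factors, was at 9.89 and 10.16 in wild type and at 10.43 and 9.99 in the deletion. Its genotype difference of 0.19 (SE 0.27) was made of 0.55 in replicate 1 and -0.17 in replicate 2.

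The 8 listed lid genes differed little between genotypes. Their differences ran from -0.04 to 0.07, with an SD between genes of 0.043. This SD was 0.051 in the 3 other base genes and 0.072 in the 6 base ATPases, so the narrow spread was not particular to the lid. It was 0.125 in the 14 core particle genes and 0.19 over all genes. RPN6, which clamps the lid to the core particle, had the upper value, 0.07 (SE 0.23), followed by RPN12, a late-joining subunit, at 0.06 (SE 0.24). RPN11, the deubiquitylase of the lid, was at 10.33 and 10.43 in wild type and 10.18 and 10.49 in the deletion, with the lower value of -0.04 (SE 0.25). RPN8, its catalytically inactive partner, was at 9.89 and 9.87 in wild type and 9.90 and 9.95 in the deletion. These groups did not overlap, yet the difference was 0.04 (SE 0.23).

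Between replicates the lid genes went both ways, and none passed. RPN3 was at 9.32 and 9.33 in the replicate 1 arrays of wild type and deletion and at 9.65 and 9.72 in replicate 2. Its difference of 0.36 (SE 0.14, adjusted p = 0.118 in limma) was the highest of all members. RPN9, RPN11 and RPN5 had 0.23, 0.20 and 0.14, and RPN8 0.02. RPN7 was at 10.42 and 10.46 in replicate 1 and 10.01 and 10.04 in replicate 2, and its -0.42 (SE 0.14) was the lowest value of the lid. RPN12 and RPN6 lay at -0.18 and -0.13.

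**Figure D3:**
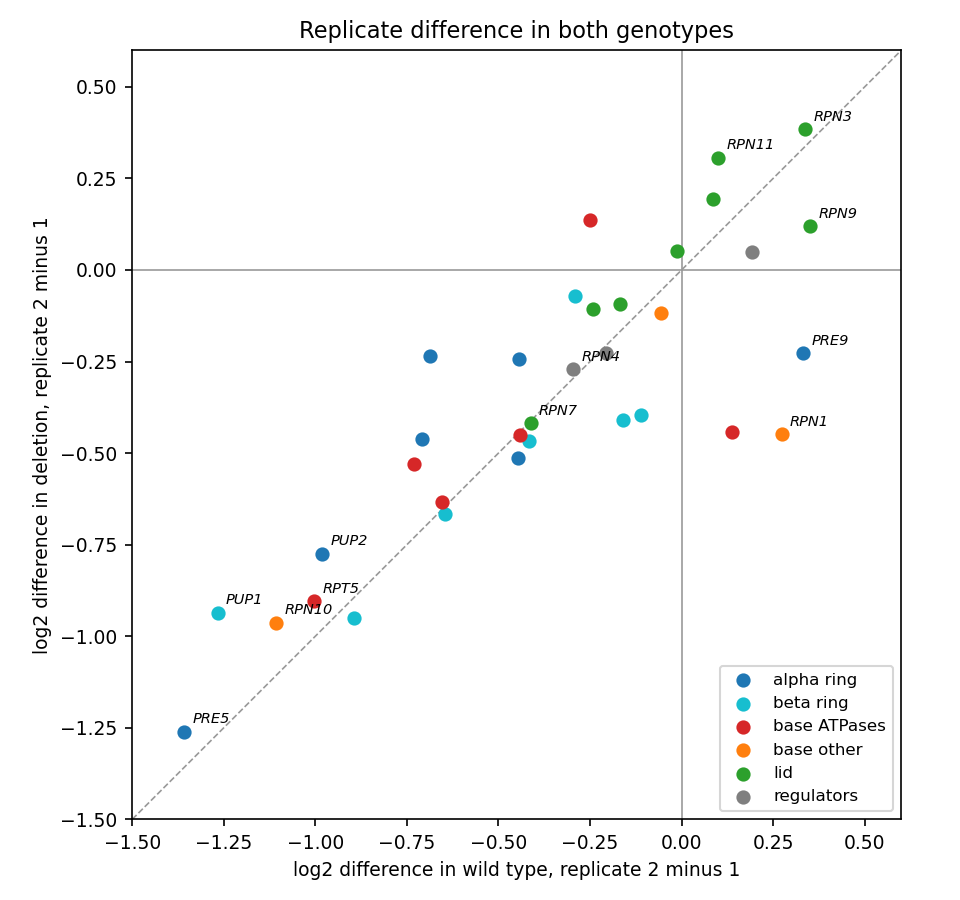
Log2 difference of replicate 2 minus replicate 1 in wild type (horizontal axis) and in the deletion (vertical axis), one point per member, coloured by subcomplex. The dashed line marks equal values. PRE5, PUP1, RPN10, RPT5 and PUP2 lie far below 0 in both genotypes, and 4 lid genes lie above 0 in both.

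Set side by side, the genes called lower in replicate 2 were all in the core particle and the base. In limma with genotype as a term, 9 of 34 members were lower in replicate 2 at an adjusted p under 0.05, where 13.2% of all genes were called lower. These were 5 of 14 core particle genes, 4 of 9 base genes, 0 of 8 lid genes and 0 of 3 regulators. No member was called higher, where 6.15% of all genes were. Both replicate 2 arrays lay below both replicate 1 arrays for 22 of 34 members, beside 46.0% of all genes: 12 of 14 in the core particle, 5 of 9 in the base, 3 of 8 in the lid and 2 of 3 regulators. The reverse held for 4 of 34 members, all in the lid, beside 23.4% of all genes. Median replicate differences were -0.48 in the alpha ring, -0.44 in the beta ring, -0.54 in the base ATPases and 0.08 in the lid, with -0.13 for all genes. The 3 other base genes had a median of -0.09 and the 3 regulators -0.22. The direction was shared by both genotypes. The core particle had medians of -0.55 (wild type) and -0.46 (deletion), and the lid 0.04 and 0.09.

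The contrast between lid and core particle was also taken within each array. Each gene was set relative to its own mean over the 4 arrays, and the lid median minus the core particle median was -0.25 in wild type replicate 1, -0.32 in deletion replicate 1, 0.37 in wild type replicate 2 and 0.23 in deletion replicate 2. The sign followed the replicate and not the genotype in all 4 arrays. These contrasts use the same values as the replicate differences above and are no separate check of them. The base ATPases minus the core particle gave 0.02, 0.03, 0.07 and -0.01 in the same order. An exact two-sided permutation test of 2 against 2 arrays cannot go below p = 0.333, so the difference between subcomplexes was not tested. Across the 34 members, replicate differences in wild type and in the deletion had Pearson r = 0.83 and Spearman rho = 0.80, beside 0.75 and 0.74 over all genes. These come from different arrays that share the 2 dates, and genes are not independent replicates.

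Gene length in the R64 annotation differed between the subcomplexes, with a median of 764.5 bp in the core particle, 1309.5 bp in the base ATPases and 1236 bp in the lid. Replicate difference and gene length had Spearman rho = 0.38 over the 34 members and 0.03 over all genes. Genes of 500 to 1000 bp had a median replicate difference of -0.19 over all 1428 such genes, and those of 1000 to 1500 bp -0.21 over 1257. The part of gene length in the contrast was not tested. The 9 lower members stayed called when the arrays were centred on the gene median or quantile normalized over the genes, where RPN3 was also called higher (0.47 in both, adjusted p = 0.0446 and 0.0482 in limma). When every probe set of the array entered the fit, 0 members were called, with adjusted p from 0.135 upward in limma. Without wild type replicate 1, 5 members were called (PRE5, PUP1, PUP3, RPT5 and RPN10), and without deletion replicate 1, 2 (PRE5 and RPN10), in fits with no genotype term.

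RPN2 and SEM1 are subunits outside the 34 members. RPN2, the second scaffold of the base, was at 10.60 and 10.44 in wild type and at 10.68 and 11.26 in the deletion. Deletion replicate 2 stood above the rest, with a genotype difference of 0.82 there and 0.07 in replicate 1. RPN2 lies on chromosome IX, whose 191 genes had a median genotype difference of 0.66 in replicate 2 and 0.04 in replicate 1. None of the 34 members, which are spread over 12 of the 16 chromosomes, lies on chromosome IX. The base chaperone gene NAS2 and STS1, which helps bring proteasomes to the nucleus, also lie there, at 0.65 and 0.67 in replicate 2 and -0.11 and 0.22 in replicate 1. SEM1, a small lid subunit, was higher in replicate 2 (0.58, SE 0.14, limma adjusted p = 0.0491), at 10.22 in both replicate 1 arrays and at 10.89 and 10.71 in replicate 2. Its genotype difference was -0.09 (SE 0.34, and 0.14 with the block), below the range of the 8 listed lid genes.

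Of the factors that bring substrates to the proteasome, 9 of 10 shuttle and Cdc48 genes had a replicate difference below 0, with a list median of -0.57. Over all genes, 3408 of 5449 were below 0, which also applies to the counts below 0 that follow. Limma called 5 of the 10 lower in replicate 2 and 0 higher at an adjusted p under 0.05, beside 13.2% and 6.15% of all genes, and the same rule holds for the counts that follow. The shuttle DSK2 was at 10.95 and 10.90 in replicate 1 and at 9.88 and 10.07 in replicate 2, a difference of -0.95 (SE 0.15, adjusted p = 0.0269 in limma). RAD23, the second shuttle, had -0.84 (SE 0.14), the Cdc48 cofactors SHP1 and UFD1 -0.79 and -0.70, and TMC1 -0.57. CDC48 itself, the segregase, was at -0.05 (SE 0.19). All 9 assembly chaperones were below 0, and 2 of them were called lower: ADD66, of the core particle chaperones, at -1.04 (SE 0.14), and TMA17, of the base chaperones, at -0.91 (SE 0.19). Of 13 deubiquitylases, 7 were below 0 and 2 were called lower, a share close to that of all genes, OTU1 at -1.07 and DOA4 at -0.64. Of 12 ubiquitin-conjugating enzymes, UBC11 was called higher at 1.10 and PEX4 lower at -0.57. In replicate 1 UBC11 was close to background, at 6.07 in wild type and 5.91 in the deletion, with limits of 6.02 and 5.79. Of 15 genes of the anaphase-promoting complex and its activators, DOC1 was called lower at -0.81 and APC5 higher at 0.73. APC5 was at 5.82 in deletion replicate 1, also close to background. In the 6 associated factors, the 5 ubiquitin and E1 genes and the 7 genes that control RPN4 or Rpn4, 0 were called in either direction.

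**Figure D4:**
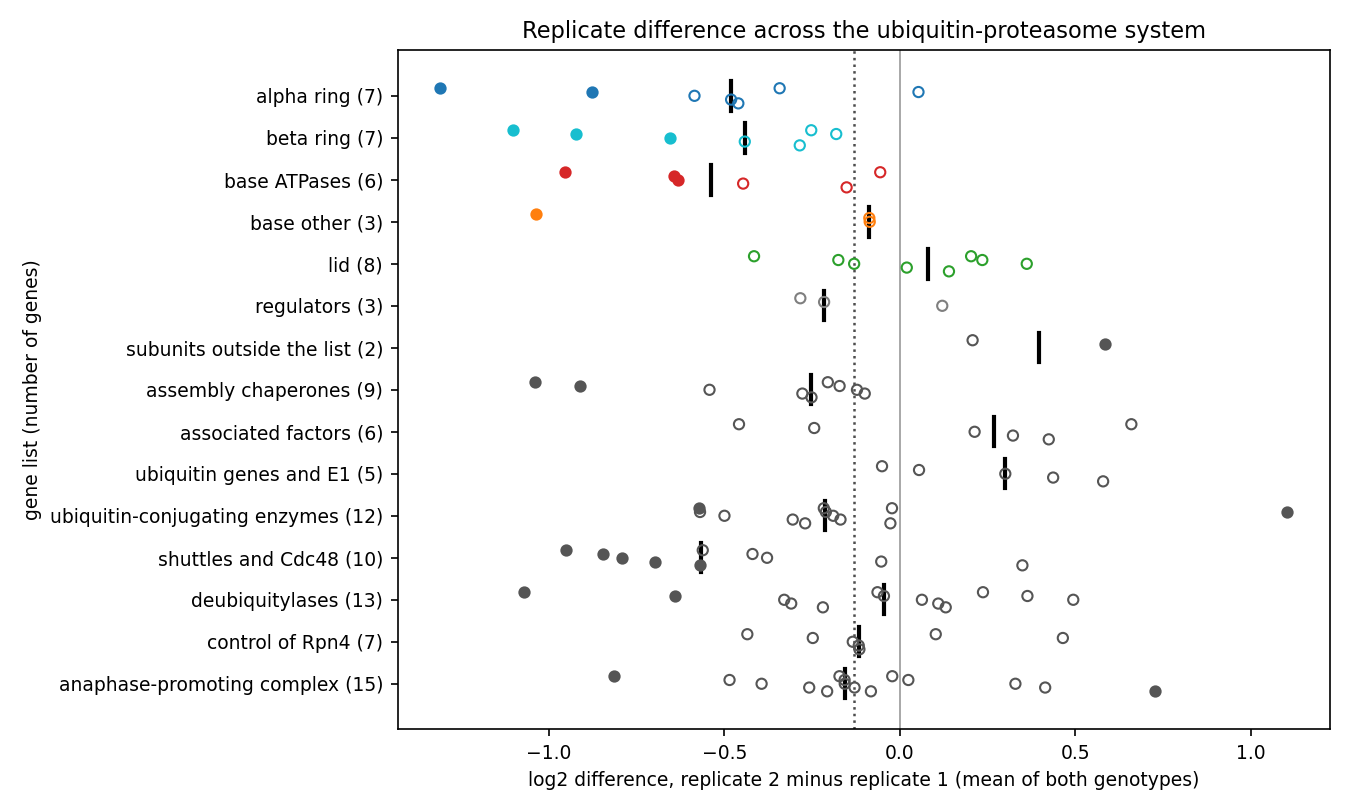
Log2 difference of replicate 2 minus replicate 1 (horizontal axis, mean of both genotypes) for each gene of the subcomplexes and of the other lists (rows). Filled points passed limma at an adjusted p under 0.05, black bars are list medians, and the dotted line is the median of all genes at -0.13. Core particle, base ATPases and the shuttle and Cdc48 genes have their medians furthest to the left.

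Between genotypes, 0 genes of these other lists passed in limma with or without the block. UBI4, the stress-inducible polyubiquitin gene, was at 9.82 and 9.92 in wild type and at 10.25 and 10.26 in the deletion. Its groups did not overlap, and its difference was 0.38 (SE 0.23, and 0.14 with the block). The groups of UBA1, MUB1 and PDR3 did not overlap either, with the deletion lower. Other genes of these lists were separated too, in either direction. Over all 5449 genes, the deletion arrays lay above wild type for 290 and below for 469. UBA1, the ubiquitin-activating enzyme, was at 10.24 and 10.28 in wild type and at 9.99 and 9.84 in the deletion, a difference of -0.34 (SE 0.23). Of the genes around Rpn4, MUB1, a partner of the ligase Ubr2 that marks Rpn4 for destruction, had -0.17 (SE 0.23). PDR3, a drug resistance regulator that can activate RPN4, had -0.34 (SE 0.25), and UBR2 0.08 (SE 0.23). Between replicates YAP1 was at 0.46 (SE 0.14) and HSF1 at -0.43 (SE 0.14). Both encode activators of RPN4, and neither passed.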

How the data were processed

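RNA of 4 yeast samples was converted to double-stranded cDNA, which was then labelled at its ends, per the labels' protocols. The strand is lost this way, and antisense transcripts count towards a gene. The arrays were summarised by the authors as log2 expression values per probe set with RMA (affy), per the submitters' processing notes. Their versions are not given in the sources. Quantile normalization makes all differences relative to other transcripts.

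Of 10928 probe sets, 7244 carried 1 gene symbol, 1 carried several and 3683 carried none. Through gene IDs, 5498 belonged to S. cerevisiae genes (NCBI gene table, assembly R64, used for names, chromosomes and lengths), with 12 symbols updated. Probe sets of 47 genes were averaged. The other 1746 named probe sets are from S. pombe.

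Titles gave the groups and replicate numbers. The test was limma 3.58.1 in R 4.3.3 (two-sided, Benjamini-Hochberg adjusted p under 0.05 over all 5449 genes), without covariates for genotype (2 residual degrees of freedom) and with genotype as a term for replicate 2 against 1 (1 degree of freedom). SEs come from these fits, and from the fit with the block where stated. The replicate numbers pair the arrays through shared date tags, and the deviations of same-numbered arrays from their group means had r = 0.747 over genes. Arrays correlated at 0.992 and 0.982 within replicates 1 and 2, and at 0.944 and 0.953 within wild type and deletion. The number of arrays limits the precision.

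Members and lists were chosen with earlier results of these data known. Named members were RPN4, UMP1, ECM29, per subcomplex those with the largest genotype and replicate differences, and those whose groups do not overlap; RPN2 and RAD61 were added. Of each other list up to 4 were named, and further genes were named after their values were seen. The planned search of promoter motifs was not run, since promoter sequences were not used here. Alternatives were the block, other probe set rules, a filter on dim genes, 2 scalings, another variance prior, leaving out chromosome IX genes and leaving out each array.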

Additional observations from a re-analysis of the deposited data

Results flagged for a closer look

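In 4 of 34 members the genotype difference was at least 0.1 on the log2 scale in each replicate and had opposite signs in the 2 replicates. With 1 array per genotype and replicate this was not tested, and the share over all genes was not counted. Whatever their size, the differences were above 0 in both replicates for 19 members and below 0 in both for 1. Over all 5449 genes these counts were 1158 and 1468, so differing signs were common among genes in general. Between the 2 replicates, genotype differences had Pearson r = -0.20 over members and 0.01 over genes other than RAD61 and chromosome IX. RPN1 was at 0.55 in replicate 1 and -0.17 in replicate 2, a change of -0.72. RPT4 was at 0.45 and -0.13, a change of -0.58, and PRE9 at 0.39 and -0.17, a change of -0.56. RPT2 went the other way, from -0.10 to 0.29, a change of 0.39.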

How the results depend on the processing

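The genotype medians and the differences of the 34 members, RPN2 and RAD61 kept their direction under the alternatives that use 4 arrays, apart from RPT3, which turned to -0.0035 with quantile normalization over the genes, and 0 genes were called in any of these. The replicate block left every genotype estimate as it was and changed no call of a member or of another gene. Centring on the gene median moved the beta ring median to 0.23 and the regulators to 0.15. For replicate 2 against 1, the fit of all probe sets called 0 genes lower, 0 higher and 0 members, with 2689 of 10879 probe sets at an unadjusted p under 0.05. Scaling moved the median of all genes from -0.13 to -0.02 when centred and to -0.01 with quantile normalization. The share of lower genes among calls went from 68.3% to 51.6% and 48.9%, with 775 and 748 genes and 1 member called higher in each. The member median became -0.18 and -0.20, the beta ring -0.33 and -0.34, the base ATPases -0.43 and -0.44, the lid 0.19 and 0.18 and the regulators -0.11 and -0.11. Signs turned in RPN1 (0.020 and 0.014), RPT2 (0.051 and 0.037) and RPN13 (0.021 and 0.015).

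Leaving out 1 array mixes genotype with date. In genotype, genes called then ran from 0 to 3 and the medians from -0.040 to 0.30 for members, -0.24 to 0.46 for the alpha ring, -0.048 to 0.47 for the beta ring, -0.19 to 0.35 for the base ATPases, -0.037 to 0.41 for the other base genes, -0.016 to 0.050 for the lid and -0.013 to 0.25 for the regulators. Among the members, RPN2 and RAD61, single genes whose sign turned ran from -0.059 to 0.27 (PRE9), -0.38 to 0.14 (PRE10), -0.15 to 0.23 (RPN3), -0.12 to 0.57 (SCL1), -0.24 to 0.46 (PRE8), -0.30 to 0.68 (PUP2), -0.55 to 0.81 (PRE5), -0.21 to 1.05 (PUP1), -0.44 to 0.51 (PUP3), -0.16 to 0.25 (PRE1), -0.12 to 0.55 (PRE4), -0.11 to 0.34 (RPT1), -0.031 to 0.22 (RPT2), -0.32 to 0.34 (RPT3), -0.28 to 0.72 (RPT5), -0.27 to 0.47 (RPT6), -0.43 to 0.68 (RPN10), -0.0099 to 0.16 (RPN6), -0.17 to 0.25 (RPN7), -0.20 to 0.15 (RPN9), -0.20 to 0.11 (RPN11), -0.058 to 0.18 (RPN12), -0.013 to 0.28 (RPN4), -0.10 to 0.12 (UMP1), -0.043 to 0.35 (PRE3), -0.057 to 0.38 (RPT4), -0.037 to 0.41 (RPN1) and -0.047 to 0.15 (RPN5).

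For replicate 2 against 1, fits without 1 array and with no genotype term were chosen after seeing the data, since 3 arrays leave no residual degree of freedom with it. They called 163 to 1168 genes lower, 105 to 669 higher and 2 to 13 members lower. Medians ran from -0.39 to -0.21 for members, -0.68 to -0.46 for the alpha ring, -0.57 to -0.31 for the beta ring, -0.58 to -0.46 for the base ATPases and 0.035 to 0.11 for the lid. Among the members and RPN2, signs turned in genes that ran from -0.14 to 0.25 (PRE9), -0.054 to 0.29 (ECM29), -0.20 to 0.088 (RPT2), -0.38 to 0.075 (RPT4), -0.36 to 0.19 (RPN1), -0.018 to 0.057 (RPN8) and -0.20 to 0.62 (RPN2). The cause of these moves was not tested.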
